A study of Mus musculus with 10 samples.

Results

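The genes that carry glucose into the cell, break it down to pyruvate and lactate, and pass pyruvate into the mitochondrion were followed in the cortex of Atad3 nKO mice and control littermates. They were 34 genes chosen by name for their place in this route, out of 24972 genes in the deposited gene tables, and all 34 were among the 14378 genes with enough reads for testing. The set holds 2 glucose transporters, 3 genes of glucose phosphorylation and isomerisation, 5 of the phosphofructokinase step, 9 of lower glycolysis, 2 lactate dehydrogenases, 3 monocarboxylate transporters, 2 subunits of the mitochondrial pyruvate carrier, 4 of the pyruvate dehydrogenase complex and 4 of its inhibiting kinases. Total RNA came from 5 Atad3 nKO mice and 5 Atad3 controls from the same litters, all of them male C57BL/6 animals of 2.5 months whose blood was washed out with cold PBS before the cortex was taken. What nKO stands for is not written in the labels, which also name no Cre driver, no deleted exons and no allele of the controls. Every library came from a different animal, and the SD below is the spread among animals. In bulk tissue, fewer cells of a type and less RNA per cell cannot be told apart.

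Glycolysis turns glucose into pyruvate in the cytosol, with hexokinase, phosphofructokinase and pyruvate kinase as its main points of control. Pyruvate is then either reduced to lactate by lactate dehydrogenase or carried into mitochondria, where the pyruvate dehydrogenase complex makes acetyl-CoA and is switched off by the Pdk kinases. Brain cells differ in the isozymes they use: Slc2a3, Eno2 and Slc16a7 are known mainly from neurons, Aldoc and Eno1 from glia, and Slc2a1 and Slc16a1 from glia and the endothelium. Atad3a, the gene targeted here, encodes an ATPase of the mitochondrial inner membrane.

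The forms of pyruvate kinase made from Pkm differ in the choice between a pair of alternative exons, and the letters that set them apart decide which form a read is given to. The M1 exon, the form known from adult brain and muscle, lies at chr9:59675029-59675195 and the M2 exon, the form known from embryonic and dividing cells, at chr9:59675568-59675734, both on the plus strand of GRCm38 in the GENCODE M21 annotation. Each is exon 9 of its transcript and has 167 bases. They are shown 5′ to 3′ with the 64 bases that differ between them in capitals; the other 103 are equal, an identity of 61.7%.
Pkm M1 exon: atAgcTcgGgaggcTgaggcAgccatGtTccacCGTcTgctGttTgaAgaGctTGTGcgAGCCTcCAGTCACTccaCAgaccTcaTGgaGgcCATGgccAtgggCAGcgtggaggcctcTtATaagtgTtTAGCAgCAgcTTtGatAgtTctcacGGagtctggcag
Pkm M2 exon: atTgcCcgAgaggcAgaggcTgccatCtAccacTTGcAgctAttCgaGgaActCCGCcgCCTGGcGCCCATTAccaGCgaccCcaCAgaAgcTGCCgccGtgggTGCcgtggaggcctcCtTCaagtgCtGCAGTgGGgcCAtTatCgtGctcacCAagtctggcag

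The lactate dehydrogenase genes were the pair of isozymes in which both members had an unadjusted p under 0.05, so their promoters (RefSeq, GRCm38.p6, 250 bases before to 50 after the annotated start) are also shown. That of Ldha is chr7:46845554-46845853 on the plus strand and that of Ldhb chr6:142507908-142508207 on the minus strand. Capitals mark matches to ACGTG and GCGTG, the letters of the core hypoxia response element, searched on both strands, so that each CACGTG counts on both.
Ldha promoter: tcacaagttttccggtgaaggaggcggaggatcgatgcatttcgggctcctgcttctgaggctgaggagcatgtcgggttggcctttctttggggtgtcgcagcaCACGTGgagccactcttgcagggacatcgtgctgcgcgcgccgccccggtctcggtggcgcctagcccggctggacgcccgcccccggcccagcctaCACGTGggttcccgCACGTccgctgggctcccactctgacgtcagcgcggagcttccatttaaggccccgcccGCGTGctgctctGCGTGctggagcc
Ldhb promoter: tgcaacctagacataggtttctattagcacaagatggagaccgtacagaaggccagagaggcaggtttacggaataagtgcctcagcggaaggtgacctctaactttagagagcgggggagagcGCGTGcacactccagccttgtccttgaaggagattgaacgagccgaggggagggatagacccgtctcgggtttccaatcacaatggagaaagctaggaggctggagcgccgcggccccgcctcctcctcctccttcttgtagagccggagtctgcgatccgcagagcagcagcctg
The window of Ldha held 5 matches to ACGTG and 2 to GCGTG, and that of Ldhb held 0 and 1. Of 49 promoters listed for 32 of the 34 genes, 44.9% held ACGTG and 55.1% held GCGTG, against 19.6% and 32.4% of all 32851 promoters of the same length. Both ACGTG and GCGTG hold the letters CG, and the base composition of these promoters was not compared with that of all promoters. A match describes the letters and does not show that a factor binds there.

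The libraries held 14812639 to 24161361 estimated counts and 16954 to 17492 detected genes. The label check came from Atad3a (NCBI gene 108888), which fell to 11.5 ± 1.97 CPM in nKO cortices, against 23.7 ± 1.87 CPM in controls (SD, n = 5 each; edgeR adjusted p = 0.00634, log2 fold change -1.04). CPM are counts scaled to library size with TMM factors. TPM are the deposited Salmon values, without TMM factors. They are divided by the gene's effective length, which Salmon estimates in each library, and scaled to the same total in every library. On the first principal component over all tested genes control 1 lay apart at -46.8, and nKO 4 held the other end at 29.8, not far from control 3 at 23.5. The effective lengths of the 34 genes spread the most in nKO 4 and control 1, so values without this pair of libraries are given beside many of the results. The running numbers in the labels are 1 to 5 for controls and 6 to 10 for nKO, so any effect of that order and the genotype cannot be told apart.

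None of the 34 genes passed a 5% false discovery rate in nKO against control, where 0.0139% of all tested genes did. By edgeR's quasi-likelihood test 0 were called and 6 had an unadjusted p under 0.05, 5 of them lower in nKO (Eno1, Pkm, Ldha, Ldhb and Pdhb) and 1 higher (Pdk2). Over all tested genes 5.65% had such a p, 2.29% lower and 3.36% higher. DESeq2 also called 0, against 0.0348% of all tested genes, and gave 6 with an unadjusted p under 0.05 (background 5.82%). Likewise limma-voom called 0 (background 0.0139%) and gave 6 (background 6.22%). The smallest adjusted p of the 34 genes was 0.820 with edgeR, 0.537 with DESeq2 and 0.781 with limma-voom. The log2 fold change was below 0 in 23 genes and above 0 in 11, with a median of -0.07, against a median of -0.01 and 52.2% below 0 over all tested genes.

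The precision was enough to bound most of the route. The median SE of a log2 fold change was 0.10 over the 34 genes and 0.12 over all tested genes. The 95% interval lay within 1.5-fold in either direction for 29 genes and within 2-fold for 32. Pfkl and Pdk2 were the genes whose interval reached beyond 2-fold.

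**Figure D1:**
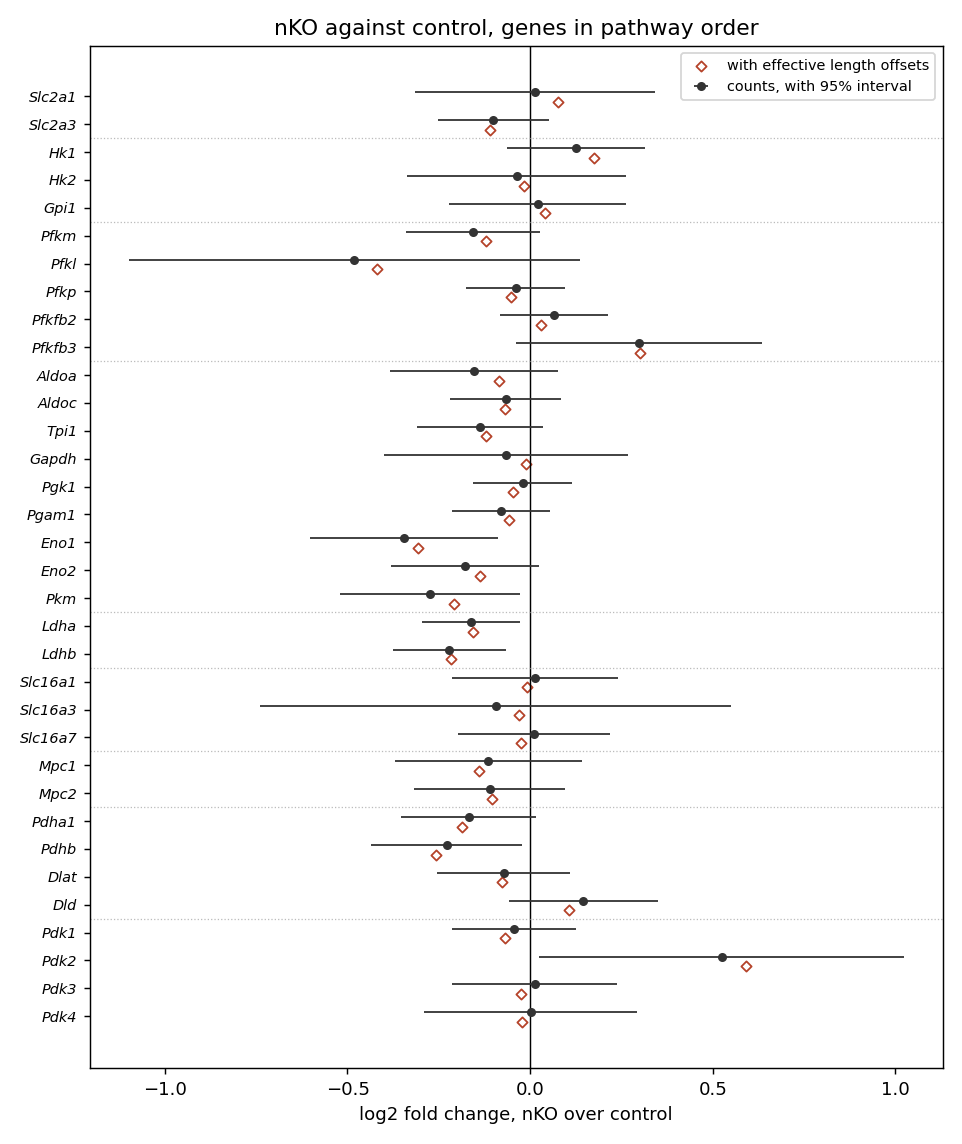
Log2 fold change, nKO over control, of the 34 genes in pathway order from uptake (top) to the pyruvate dehydrogenase kinases (bottom); black points are the edgeR estimates with their 95% interval and open diamonds the estimates with effective length offsets. Of the 9 lower glycolysis genes from Aldoa to Pkm all 9 points lie left of 0, and Pdk2 stands farthest right at 0.52.

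The levels per length spanned 3 orders of magnitude. Aldoa was at the top, with 2343 ± 117 TPM in nKO and 2396 ± 135 TPM in control cortices, and Hk2 at the bottom, with 2.32 ± 0.297 TPM in nKO and 2.26 ± 0.250 TPM in controls (SD, n = 5 each). Gapdh and Pkm followed Aldoa, and their ranges did not reach it in either group. Below them Ldhb, Eno1, Tpi1, Eno2, Pgk1, Pgam1 and Aldoc had group means between 623 and 945 TPM, and neighbours in that order mostly overlapped. Together the 34 genes took 13814.9 ± 437 TPM in nKO and 14370.5 ± 538 TPM in controls (SD, n = 5 each), or 1.38% of all TPM in nKO and 1.44% in controls. The ranges of this sum, 13056.7 to 14114.7 TPM in nKO and 13655.1 to 14875.7 TPM in controls, overlapped.

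**Figure D2:**
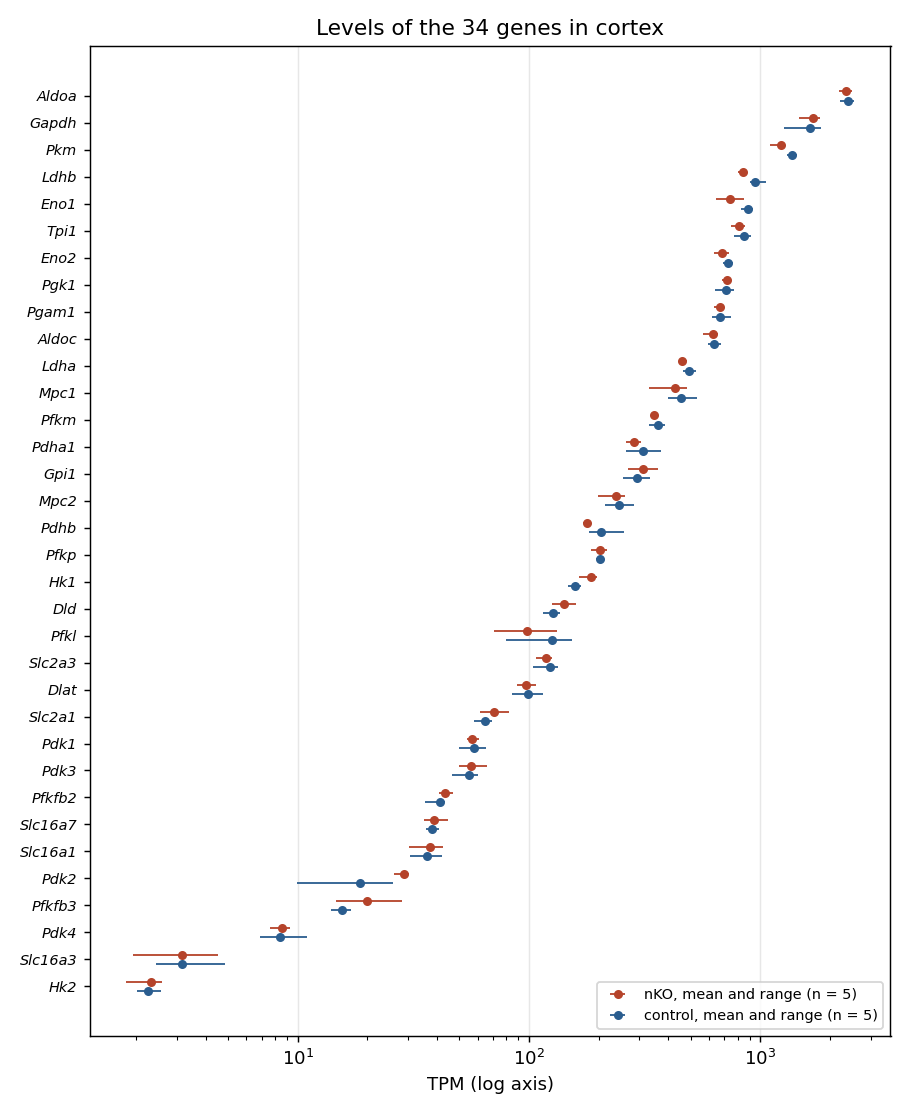
TPM (log axis) of the 34 genes, ordered by level; points are group means and lines the range of the 5 nKO (red, upper) and 5 control (blue, lower) libraries. The lines of most genes overlap; those of Pkm and Ldhb lie lower in nKO without overlap, and that of Pdk2 lies higher.

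At the uptake and priming steps the groups of every gene overlapped. Slc2a3, the high-affinity glucose transporter of neurons, had 117, 125, 107, 119.9 and 121 TPM in nKO, against 104, 127, 122, 134 and 129 TPM in controls. Slc2a1, the transporter of the blood-brain barrier and of glia, had 80.9, 81.8, 64.3, 61.4 and 63.7 TPM in nKO, against 68.0, 69.4, 57.7, 67.1 and 59.1 TPM in controls. Both pairs of groups overlapped, with log2 fold changes of -0.10 (SE 0.07) for Slc2a3 and 0.01 (SE 0.15) for Slc2a1. The values were -0.14 for Slc2a3 and 0.21 for Slc2a1 without nKO 4 and control 1.

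Hk1, the mitochondria-bound hexokinase that is dominant in brain, had 181, 189, 196, 193 and 164 TPM in nKO, against 148, 148, 166, 167 and 158 TPM in controls. In TPM 4 of its 5 nKO libraries lay above every control library, and the lowest nKO library lay among the controls. Its log2 fold change was 0.13 (SE 0.09; edgeR adjusted p = 0.849), and Gpi1, the isomerase of the next step, stood at 0.02 (SE 0.11). Without nKO 4 and control 1 they were 0.20 for Hk1 and 0.09 for Gpi1, and Hk1 was 0.08 without control 2 or without nKO 3. Hk2, the inducible hexokinase of muscle and of growing cells, had 1.81, 2.30, 2.45, 2.43 and 2.58 TPM in nKO, against 2.02, 2.11, 2.10, 2.49 and 2.56 TPM in controls, and its groups overlapped.

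Among the 3 phosphofructokinase subunits, the committed step of glycolysis, Pfkm (muscle type) had 353, 341, 357, 339.6 and 340.0 TPM in nKO, against 349.9, 332, 367, 376 and 388 TPM in controls. Pfkp (platelet type) had 204, 217, 211, 186 and 198 TPM in nKO, against 196, 207, 198, 208 and 206 TPM in controls. The groups of both subunits overlapped, at log2 fold changes of -0.16 (SE 0.09) for Pfkm and -0.04 (SE 0.06) for Pfkp. Pfkm stood at -0.07 and Pfkp at -0.0026 without nKO 4 and control 1. Of the 3 subunits, Pfkl (liver type) varied most between animals of 1 genotype, from 65.4 to 153 CPM in nKO and from 85.9 to 228 CPM in controls. Its log2 fold change was -0.48 (95% interval from -1.10 up to 0.14, with an SE of 0.28; edgeR adjusted p = 0.826), and -0.16 without nKO 4 and control 1. Pfkfb2 and Pfkfb3 make fructose 2,6-bisphosphate, an activator of phosphofructokinase. Their log2 fold changes were 0.07 (SE 0.07) and 0.30 (SE 0.16). For Pfkfb3 the value was 0.14 without nKO 5, its highest library. For Pfkfb2 it was 0.02 without control 1, its lowest library.

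All 9 genes of lower glycolysis had a log2 fold change below 0, from -0.35 to -0.02 with a median of -0.14, and Eno1 and Pkm had an unadjusted p under 0.05. With effective length offsets all 9 stayed below 0 with a median of -0.08. Without nKO 4 and control 1, 8 of 9 were below 0, the median was -0.06 and Gapdh stood at 0.11. Members of 1 route measured in the same libraries are not independent, so the count of 9 carries no test.

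Aldoa, the aldolase of most tissues, had 2272, 2494, 2393, 2189 and 2369 TPM in nKO, against 2220, 2321, 2380, 2548 and 2510 TPM in controls. Aldoc, the aldolase enriched in astrocytes and in cerebellar Purkinje cells, had 641, 616, 635, 567 and 657 TPM in nKO, against 608, 597, 634, 629 and 678 TPM in controls. Both aldolases overlapped between the groups, at log2 fold changes of -0.15 (SE 0.11) for Aldoa and -0.07 (SE 0.07) for Aldoc. For Aldoa the value was -0.08 without nKO 4 or without control 1, and -0.01 without both. For Aldoc it was -0.03 without nKO 4 and -0.0065 without both. Gapdh, which oxidises glyceraldehyde phosphate and makes NADH, had 742, 778, 764, 513 and 660.1 CPM in nKO, against 917, 636, 509, 769 and 788 CPM in controls. Its lowest library was a control and its second lowest nKO 4, and the log2 fold change was -0.07 (SE 0.15). Tpi1, Pgk1 and Pgam1, which act on either side of Gapdh, lay at -0.14 (SE 0.08), -0.02 (SE 0.06) and -0.08 (SE 0.06). With nKO 4 and control 1 both left out, they lay at -0.08 for Tpi1, -0.06 for Pgk1 and -0.06 for Pgam1.

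Enolase makes phosphoenolpyruvate, the substrate of pyruvate kinase. Eno1, its widespread form, had 407, 489, 459.6, 306 and 379.5 CPM in nKO, against 609.9, 492, 449.5, 506 and 538 CPM in controls. A single control library lay inside the nKO range, and the group means were 408 ± 71.5 CPM in nKO and 519 ± 59.9 CPM in controls (SD, n = 5 each). The log2 fold change was -0.35 (95% interval from -0.60 up to -0.09, with an SE of 0.12; edgeR adjusted p = 0.820), and -0.20 without nKO 4 and control 1.

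The value of Eno1 alone depends on how Salmon divided reads between it and Eno1b, a near-identical copy. Eno1b was given 57.4, 25.5, 21.4, 125 and 98.5 TPM in nKO, against 100.4, 22.1, 151, 18.2 and 21.7 TPM in controls, levels that differ several-fold among animals of 1 genotype. The sum of both genes, chosen after these values were seen, was 773, 874, 819, 767 and 795 TPM in nKO, against 967, 921, 976, 904 and 956 TPM in controls. In TPM every nKO library lay below every control library in this sum, as was so for 0.313% of all tested genes. In CPM nKO 2 had 489 for Eno1 and 14.6 for Eno1b, against 492 and 11.9 in control 2, so there the groups met. The log2 fold change of the summed reads was -0.33 (SE 0.10; edgeR adjusted p = 0.819), or -0.29 (SE 0.06; edgeR adjusted p = 0.436) with effective length offsets.

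Eno2, the enolase of neurons, had 733, 696, 669, 630.3 and 699.7 TPM in nKO, against 733, 691, 760.3, 731 and 710.0 TPM in controls. The groups overlapped, with a log2 fold change of -0.18 (SE 0.09; edgeR adjusted p = 0.820), which was -0.10 without control 1 and -0.05 without nKO 4 and control 1. Pkm, whose product makes pyruvate and ATP, had 940.0, 950.3, 922, 648 and 882 CPM in nKO, against 1289, 909, 1001, 1007 and 1046 CPM in controls. In CPM the lowest control library lay inside the nKO range. In TPM Pkm had 1283, 1280, 1239, 1105 and 1272 in nKO, against 1341, 1309, 1447, 1376 and 1406 in controls, and the groups did not overlap. Its log2 fold change was -0.27 (95% interval from -0.52 up to -0.03, with an SE of 0.11; edgeR adjusted p = 0.820), and -0.11 without nKO 4 and control 1.

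Lactate dehydrogenase interconverts pyruvate and lactate, with Ldha the subunit that prevails in glycolytic tissue and Ldhb the one that prevails in heart and in neurons. Ldhb had 380.2, 365, 386, 320.1 and 377 CPM in nKO, against 454, 399.7, 461, 415 and 401 CPM in controls. It was the 1 gene of the 34 whose groups did not overlap in CPM, where 1.38% of all tested genes did not overlap (0.675% lower in nKO). The means were 366 ± 26.6 CPM in nKO and 426 ± 29.2 CPM in controls (SD, n = 5 each). The log2 fold change was -0.22 (95% interval from -0.38 up to -0.07, with an SE of 0.07; edgeR adjusted p = 0.820), between -0.25 and -0.18 with any 1 library left out. Without nKO 4 and control 1 it was -0.16. Ldha had 251, 274, 257, 232 and 254 CPM in nKO, against 296, 278, 294, 278 and 273 CPM in controls. Its groups met at 274 CPM in nKO and 273 CPM in controls, with a log2 fold change of -0.16 (SE 0.06; edgeR adjusted p = 0.820), and -0.13 without nKO 4 and control 1.

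In TPM the groups of 3 genes did not overlap, Pkm and Ldhb lower in nKO and Pdk2 higher, where 2.56% of all tested genes did not overlap (0.313% lower and 2.25% higher in nKO). In TPM the gap between the nearest nKO and control libraries of each of these genes was smaller than the SD of either group.

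**Figure D3:**
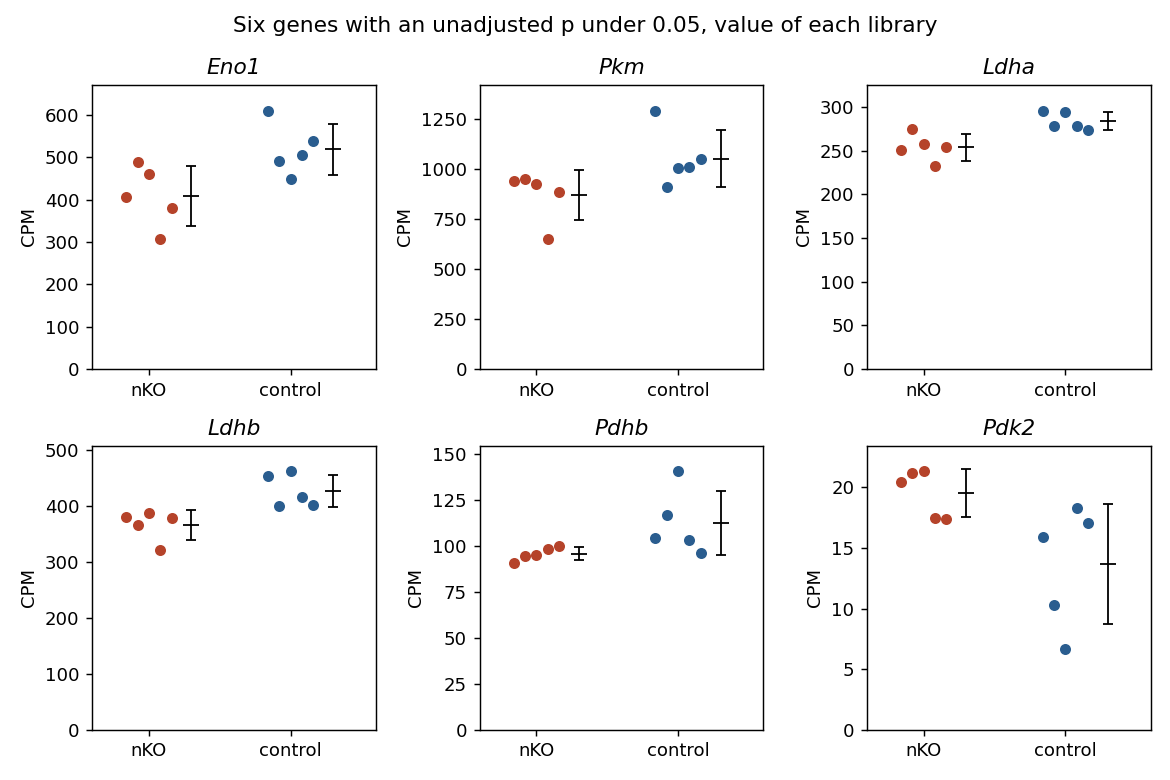
TMM-scaled CPM of the 6 genes with an unadjusted edgeR p under 0.05, 1 point per library in library order, nKO (red, left) and control (blue, right), with the mean and SD of 5 libraries beside the points. Eno1, Pkm, Ldha, Ldhb and Pdhb have lower means in nKO and Pdk2 a higher one, and the points of Ldhb alone are fully apart.

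The monocarboxylate transporters, which move lactate and pyruvate across the plasma membrane, all had intervals that span 0. Slc16a7, the high-affinity transporter of neurons, had 38.9, 35.7, 40.1, 44.5 and 35.3 TPM in nKO, against 35.8, 40.8, 39.1, 37.1 and 37.7 TPM in controls. Slc16a1, found in glia and endothelium, had 40.5, 42.6, 34.4, 39.1 and 30.3 TPM in nKO, against 30.5, 36.9, 31.1, 42.0 and 40.9 TPM in controls. The groups of both overlapped, and both log2 fold changes were 0.01 (SE 0.10 for Slc16a7 and 0.11 for Slc16a1). Slc16a3, the lactate exporter of glycolytic cells, was low at 1.95 to 4.54 TPM in nKO and 2.43 to 4.83 TPM in controls, and its wide interval (-0.74 to 0.55) bounds little.

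At the entry of pyruvate into mitochondria the carrier subunits Mpc1 and Mpc2 had log2 fold changes of -0.11 each (SE 0.12 and 0.10). Without nKO 2 they were -0.02 for Mpc1 and -0.06 for Mpc2, and without control 3 they were -0.06 for both. Mpc1 was -0.18 without nKO 4 and -0.19 without nKO 4 and control 1. Mpc1 ranged from 332 to 481 TPM in nKO and from 399.6 to 531 TPM in controls, and Mpc2 from 199 to 261 TPM in nKO and from 214 to 285 TPM in controls. Pdhb, the beta subunit of the decarboxylase of the pyruvate dehydrogenase complex, had 90.7, 94.5, 95.1, 98.2 and 99.96 CPM in nKO, against 104, 117, 140.2, 103 and 96.2 CPM in controls. A control library lay among the nKO values and another, control 3, stood well above the rest. The log2 fold change of Pdhb was -0.23 (95% interval from -0.44 up to -0.02, with an SE of 0.10; edgeR adjusted p = 0.820), and -0.13 without control 3. Without nKO 4 and control 1 the value of Pdhb was -0.27. Pdha1, the alpha subunit, lay at -0.17 (SE 0.09; edgeR adjusted p = 0.820) at -0.10 without control 3, and at -0.26 without nKO 4 and control 1. Dlat and Dld, the acetyltransferase and the dehydrogenase of the complex, lay at -0.07 (SE 0.08) and 0.15 (SE 0.09). Dlat stood at -0.02 without control 3, at -0.04 without nKO 2 and at -0.13 without nKO 4, and Dld at 0.07 without nKO 4. Dlat was -0.15 and Dld 0.04 without nKO 4 and control 1.

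The 4 kinases that phosphorylate and switch off the complex had log2 fold changes from -0.04 to 0.52. Pdk2, the most widespread of them, had 20.4, 21.2, 21.3, 17.5 and 17.4 CPM in nKO, against 15.9, 10.3, 6.68, 18.3 and 17.0 CPM in controls. One control library lay inside the nKO range, and the controls differed more among themselves (13.6 ± 4.96 CPM) than the nKO animals did (19.6 ± 1.98 CPM; SD, n = 5 each). The log2 fold change of Pdk2 was 0.52 (95% interval from 0.03 up to 1.02, with an SE of 0.23; edgeR adjusted p = 0.820), and 0.35 without control 3, its lowest library. Without nKO 4 and control 1 the value of Pdk2 was 0.62.

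Pdk1, known as a target of the hypoxia response, had 104, 106, 108, 122 and 117 CPM in nKO, against 103, 114, 131, 110.3 and 116 CPM in controls. Pdk3 had 36.3, 38.0, 43.0, 50.9 and 40.7 CPM in nKO, against 35.9, 43.5, 44.4, 45.7 and 37.7 CPM in controls. Pdk4, known to respond to fasting and fatty acids, had 10.9, 10.7, 9.67, 11.7 and 12.2 CPM in nKO, against 9.42, 10.7, 9.10, 14.5 and 11.5 CPM in controls. The groups of these 3 kinases overlapped, at log2 fold changes of -0.04 (SE 0.08), 0.01 (SE 0.10) and 0.00 (SE 0.14). Without nKO 4 and control 1 they stood at -0.13 for Pdk1, -0.12 for Pdk3 and -0.08 for Pdk4.

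Because animals may differ in library scaling, pairs of isozymes were also compared within each library, as the log2 ratio of the TPM of 1 form over the other. None of 7 ratios and 1 transcript share passed an exact two-sided permutation test adjusted over the 8, and the smallest adjusted p was 0.406. The neuronal over glial enolase ratio, Eno2 over Eno1, was -0.10 ± 0.15 in nKO and -0.28 ± 0.11 in controls, a difference of 0.18 (SD, n = 5 each; exact permutation p = 0.0873, adjusted p = 0.406). It uses Eno1 without Eno1b, so it depends on how reads were divided between them. Of their summed TPM Eno1b was given from 2.0% in control 4 to 16.3% in nKO 4. Hk1 over Hk2 was 6.26 ± 0.22 in nKO and 6.07 ± 0.13 in controls, a difference of 0.19 (SD, n = 5 each; exact permutation p = 0.119). Slc2a3 over Slc2a1 was 0.75 ± 0.19 in nKO and 0.93 ± 0.20 in controls, a difference of -0.18 (SD, n = 5 each; exact permutation p = 0.190). In each of these 3 ratios the groups overlapped.

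The other ratios lay closer still. Ldhb over Ldha was 0.88 ± 0.08 in nKO and 0.94 ± 0.05 in controls (SD, n = 5 each; exact permutation p = 0.238). Pfkm over Pfkp differed by -0.07, Aldoa over Aldoc by -0.02 and Slc16a7 over Slc16a1 by -0.02 between nKO and control. The smallest p that 5 animals against 5 can give is 0.00794.

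**Figure D4:**
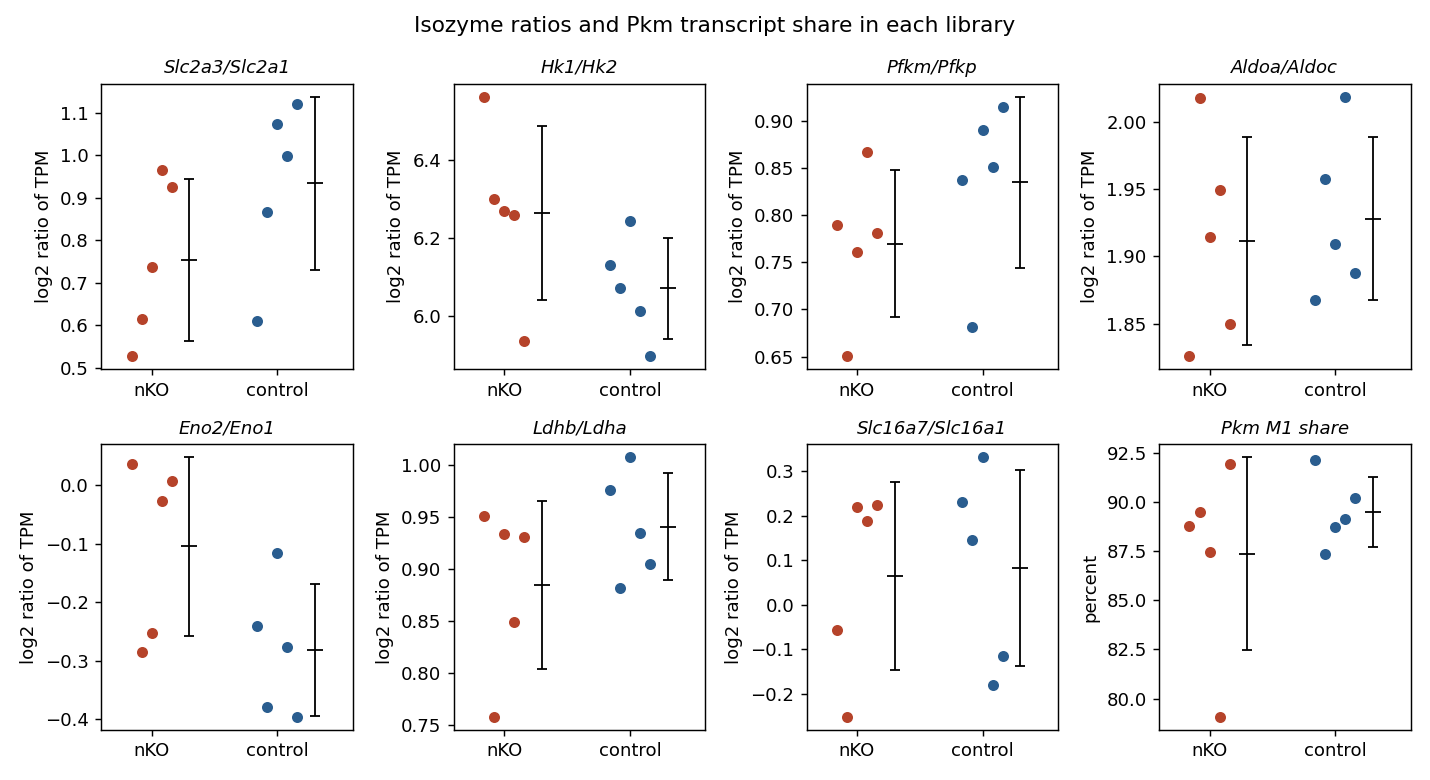
Log2 ratio of TPM for 7 isozyme pairs and the M1 share of Pkm transcripts in percent (last panel), 1 point per library in library order, nKO (red, left) and control (blue, right), with mean and SD of 5 libraries; axes do not start at 0. The groups overlap in all 8 panels, and 1 nKO library stands low at 79.1% in the Pkm panel.

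The transcript tables list 70 RefSeq transcripts of the 34 genes, 1 for each of 16 genes and more for the other 18. The M1 transcript of Pkm (NM_001253883), which carries the M1 exon printed above, made up 88.8%, 89.5%, 87.5%, 79.1% and 92.0% of Pkm TPM in nKO, against 92.1%, 87.4%, 88.7%, 89.1% and 90.2% in controls. M1 was thus the main form in every library, and nKO 4 had the lowest share. The mean share was 87.4 ± 4.91% in nKO and 89.5 ± 1.78% in controls (SD, n = 5 each; exact two-sided permutation p = 0.492, adjusted p = 0.656). Without nKO 4 and control 1 the difference was 0.59 percentage points in the other direction. The M2 transcript (NM_011099) had 153 ± 47.8 TPM in nKO and 144 ± 24.4 TPM in controls (SD, n = 5 each), and the M1 transcript had 1083 ± 121 TPM in nKO and 1232 ± 54.5 TPM in controls (SD, n = 5 each).

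A test of transcript usage with edgeR covered 16 of the genes and called 0 of them, where 0.0211% of 4732 genes were called. By the Simes method 0 had an unadjusted p under 0.05 (background 0.402%), and by the gene-level test 1 did, Pfkm (background 4.02%). Its transcript NM_001357688 stood at 19.99 ± 8.59 TPM in nKO and 10.3 ± 5.54 TPM in controls (SD, n = 5 each), a small part of the gene beside NM_001163487 with 317 ± 20.5 TPM in nKO and 341 ± 25.1 TPM in controls. Hk1 was carried almost wholly by NM_001146100, 99.8% of its TPM in nKO and 99.7% in controls, and Gapdh by NM_008084. The Ldhb transcripts NM_001316322 and NM_008492 have the same length and nearly equal TPM in each group, so their division says nothing of each alone. Pfkfb3 was listed with 8 transcripts, and its NM_133232 stood at 0 in all 5 nKO libraries and at 0, 8.48, 8.53, 0 and 7.54 TPM in controls. The usage test kept 4 of the 8 and did not call Pfkfb3. With reads in too few libraries for the count filter, NM_133232 was not part of that test.

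How the reads are scaled for length bears on these genes, because the effective lengths that Salmon estimated differed between libraries. Relative to the mean of the 10 libraries they ranged from 0.755 to 1.32 over the 34 genes, with both ends in nKO 4 and control 1. For Pkm the relative effective length was 0.811 in nKO 4 and 1.19 in control 1, and for Aldoa it was 0.807 in nKO 4 and 1.22 in control 1. By CPM, nKO 4 was the lowest library for 14 of the 34 genes and control 1 the highest for 11. By TPM, nKO 4 was the lowest for 11, control 1 was the highest for 0 and the lowest for 10, and control 3 was the highest for 13.

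**Figure D5:**
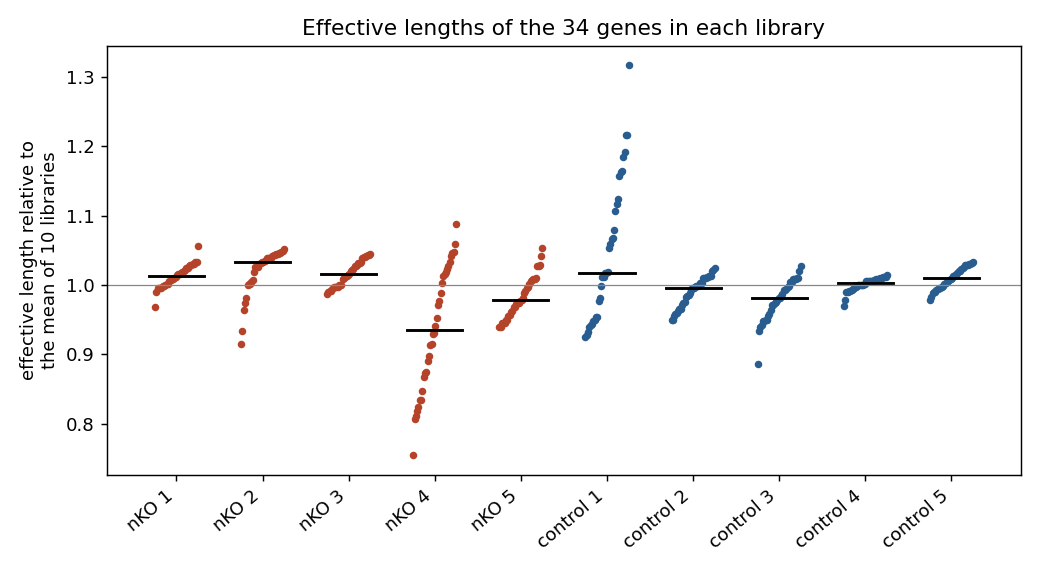
Effective length of each of the 34 genes in each library, relative to its mean over the 10 libraries; each point is 1 gene, sorted within a library, and bars are medians, with nKO libraries (red) left of controls (blue). The points of nKO 4 reach down to 0.755 and those of control 1 up to 1.32, and the other 8 libraries stay closer to 1.

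When the effective lengths entered the edgeR fit as offsets, 0 of the 34 genes were called and 11 had an unadjusted p under 0.05, against a background of 9.7%. The 9 that were lower in nKO were Eno1, Ldhb, Pkm, Pdhb, Ldha, Pdha1, Eno2, Pfkm and Tpi1 (background 4.19%), and the 2 that were higher were Hk1 and Pdk2. The smallest adjusted p was 0.441, and the median SE of the 34 genes was 0.07. Hk1 then stood at 0.17 (SE 0.06), Pkm at -0.21 (SE 0.06) and Gapdh at -0.01 (SE 0.11). Over all tested genes the log2 fold change was related to gene length (Spearman rho 0.30 across genes, which share the same 10 libraries), and the 34 genes were shorter, with a median length of 2628 bases against 2994 bases. With this length trend subtracted the median of the 34 genes was -0.065 and 24 were below 0, against -0.069 and 23 in the main fit.

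Neighbouring pathways were described by count alone, and none of their genes was called. Of 30 tested genes among 42 other genes of glycolysis and pyruvate, 22 were below 0 (median -0.09), with Hk3 at -0.53 (SE 0.22) and Ldhd, a D-lactate dehydrogenase, at -0.44 (SE 0.19) or -0.24 without nKO 4 and control 1. Hk3 was low, with means of 0.740 CPM in nKO and 1.08 CPM in controls. Of 21 glycogen genes 17 were below 0 (median -0.04), with Pgm2 at -0.16 (SE 0.07), and of 10 genes of the cytosolic NADH shuttles 9 were (median -0.08), with Mdh1 at -0.11 (SE 0.07). In the pentose phosphate pathway, which makes NADPH from glucose 6-phosphate, 6 of 11 genes were below 0, and the median was -0.17. Pgd and Tkt of that pathway lay at -0.35 (SE 0.15) and -0.30 (SE 0.16), and at -0.25 and -0.06 without nKO 4 and control 1.

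HIF1 regulators and targets outside the 34 genes were evenly divided, 11 below 0 and 11 above with a median of 0.00, led by Bnip3 at -0.15 (SE 0.09) or -0.24 without nKO 4 and control 1. Of 20 genes that sense energy state or regulate glycolysis, 14 were above 0 (median 0.12). Prkaa2, the catalytic alpha subunit of AMP-activated kinase known from muscle and neurons, had the smallest unadjusted p of the 20. It stood at 145 ± 11.1 CPM in nKO and 123 ± 7.23 CPM in controls (SD, n = 5 each). The groups of Prkaa2 did not overlap in CPM, as was so for 1.38% of all tested genes. Its log2 fold change was 0.24 (SE 0.07; edgeR adjusted p = 0.820), and 0.15 without nKO 4 and control 1. Trp53, which restrains glycolysis among other roles, was low and lay at 0.59 (SE 0.25; edgeR adjusted p = 0.820).

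The cell type markers of cortex were present, and 0 of their genes were called. The summed CPM of 10 astrocyte markers was 5342 to 6236 in nKO and 4851 to 5323 in controls, without overlap, while 8 of the 10 lay below 0 one by one (median -0.07). That sum was mostly Slc1a2, the main glutamate transporter, with 4383 ± 369 CPM in nKO and 3716 ± 248 CPM in controls (SD, n = 5 each). The sums overlapped for 10 neuronal markers (7896 to 8329 CPM in nKO and 6512 to 8087 CPM in controls; 3 below 0), 10 of oligodendrocytes (1577 to 1917 CPM in nKO and 1562 to 1993 CPM in controls; 5 below 0) and 10 of microglia (339.6 to 378 CPM in nKO and 352 to 381 CPM in controls; 7 below 0). They also overlapped for 9 endothelial markers (337 to 383 CPM in nKO and 314 to 371 CPM in controls), 6 of mural cells (265 to 296 CPM in nKO and 263 to 295 CPM in controls) and 5 of oligodendrocyte precursors (111 to 137 CPM in nKO and 108 to 145 CPM in controls). Of 5 red blood cell markers the 2 that were tested summed to 0.237 to 17.2 CPM in nKO and 1.23 to 12.9 CPM in controls. Of 4 skeletal muscle markers the 2 that were tested summed to 2.89 to 7.04 CPM in nKO and 2.99 to 8.58 CPM in controls. No marker was at 0 in every library. The part of cell composition in the values of the 34 genes was not tested.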

How the data were processed

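Cortex RNA of 10 mice was sequenced as stranded total RNA libraries, and the genotype label set the groups. Salmon, bcl2fastq, DESeq2 and the mouse build mm10 appear in the submitters' processing notes; versions and the annotation release are not given in the sources used here. Per the file headers the authors deposited estimated counts, TPM and effective lengths for each gene and for each RefSeq transcript of each library. A deposited table of 22 genes that holds none of the 34 genes, on an unstated scale, was not used here. The 34 genes, the lists and the tests were chosen with earlier results of these data known.

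Estimated counts were rounded to whole numbers, and filterByExpr, with a minimum count of 10 and a minimum total of 15, kept 14378 genes. Libraries were scaled by TMM and compared with the robust quasi-likelihood F test of edgeR 4.0.16 (R 4.3.3), adjusted by Benjamini-Hochberg over all tested genes at 5%. Intervals are 95% intervals on the test's degrees of freedom. Ratios used log2(TPM + 0.1) and a two-sided exact permutation test on the 252 regroupings (scipy 1.17.1). For transcript usage, edgeR's diffSpliceDGE was run on rounded transcript estimates, which ignores the error of read assignment. Gene positions and promoters came from RefSeq (GRCm38.p6) and the Pkm exons from GENCODE M21.

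All 34 genes are named. Genes with an unadjusted p under 0.05, isozyme pairs, Gapdh and the Pdk genes are given library by library, and up to 3 genes of each other list with the smallest p are named. The tests were checked on simulated counts. The alternatives tried were scaling by DESeq2 size factors or by library size alone, no count filter, a filter on CPM (1 or more in 5 or more libraries), the DESeq2 1.42.0 Wald test, limma-voom (limma 3.58.1), effective length offsets, a subtracted length trend, another pseudocount (1), ratios of estimated counts, each library left out and nKO 4 and control 1 left out together. Salmon divides reads shared by near-identical sequences, so Eno1 and the transcripts of 1 gene are uncertain. Total counts limit the precision, and it is given by the SE of each value.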

Additional observations from a re-analysis of the deposited data

Results flagged for a closer look

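A library stood far from the other 4 of its group in 4 of the 84 sets of 5 values examined (34 genes, 7 ratios and 1 share in each genotype), where chance alone gives about 1 in 20, or 4.2. In nKO, library nKO 4 had 521 CPM of Aldoc, against 612 to 639 CPM in the other nKO libraries. The same library had 648 CPM of Pkm, against 882 to 950.3 CPM in the other nKO libraries. In controls, library control 2 had 431 CPM of Tpi1, against 477 to 487 CPM in the others, and library control 3 had 137 CPM of Mpc1, against 112 to 119 CPM. Causes of these values were not tested.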

How the results depend on the processing

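In each alternative fit that tested genes, including each of the 10 libraries left out in turn, 0 of the 34 genes were called. Transcript usage gave 0 calls with another transcript filter, with each library left out and without nKO 4 and control 1. The subtracted length trend gave values with no test, and the other pseudocount and the count ratios bear on the ratios alone. Leaving out 1 library moved the median log2 fold change from -0.10 (without control 2) to -0.045 (without control 5), and between 23 and 26 genes were below 0. The 6 genes with an unadjusted p under 0.05 kept their direction throughout, but not all kept such a p. Without nKO 4 and control 1 the unadjusted edgeR p was 0.097 for Pkm, 0.054 for Ldha and 0.051 for Pdk2. In that fit Eno1, Ldhb and Pdhb stayed under 0.05. With 1 library left out it reached 0.082 for Pkm, 0.083 for Pdhb and 0.094 for Pdk2, while Eno1, Ldha and Ldhb stayed under 0.05. The fits that left out nKO 4 and control 1 together with effective length offsets, and that summed Eno1 and Eno1b, were chosen after seeing the data. With all libraries kept or only nKO 4 and control 1 left out, the log2 fold changes that changed direction lay between -0.12 and 0.11. For Pdk4 these were -0.0053 with DESeq2 size factors, -0.013 with library size alone, -0.0050 with no count filter, -0.0067 with the CPM filter and -0.0045 with DESeq2. Library size alone gave -0.0028 for Slc16a7 and -0.0017 for Pdk3. Effective length offsets gave -0.0078 for Slc16a1, -0.024 for Slc16a7, -0.025 for Pdk3 and -0.022 for Pdk4. A subtracted length trend gave 0.030 for Pgk1, -0.023 for Slc16a1 and -0.066 for Slc16a7. Without nKO 4 and control 1 the values were 0.11 for Gapdh, -0.074 for Slc16a1, 0.11 for Slc16a3, -0.10 for Slc16a7, -0.12 for Pdk3 and -0.081 for Pdk4, and the difference of the Pkm M1 share was 0.59 percentage points. With offsets as well they were 0.0090 for Pfkp, 0.094 for Gapdh, -0.042 for Slc16a1, 0.051 for Slc16a3, -0.056 for Slc16a7, -0.11 for Pdk3 and -0.057 for Pdk4. The cause was not tested.

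With each library left out in turn, log2 fold changes that changed direction ranged from -0.17 to 0.034 for Gapdh, -0.057 to 0.088 for Gpi1, -0.079 to 0.035 for Hk2, -0.088 to 0.0069 for Pdk1, -0.076 to 0.059 for Pdk3, -0.062 to 0.12 for Pdk4, -0.047 to 0.014 for Pgk1, -0.035 to 0.068 for Slc16a1, -0.30 to 0.082 for Slc16a3, -0.085 to 0.070 for Slc16a7 and -0.071 to 0.13 for Slc2a1. The differences of the ratios ranged from -0.043 to 0.0060 for Aldoa over Aldoc and from -0.084 to 0.061 for Slc16a7 over Slc16a1. No paired analysis was possible because the labels number the controls 1 to 5 and the nKO libraries 6 to 10 and give no pairing. At this number of animals the interval of 5 of the 34 genes reached beyond 1.5-fold.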
